A study of Drosophila melanogaster with 6 samples.

Results

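The genes described here are those of autophagy and of the vacuolar proton pump in *Drosophila melanogaster*. They were chosen by name, as the genes whose symbol begins with Atg and a digit or with Vha, together with ref(2)P. The rule gave 54 genes of the 14862 in the authors' deposited table, of which 21 were autophagy genes and 33 were pump genes. The study asked which oocyte genes respond when insulin signalling is suppressed. RNA was sequenced from stage 14 oocytes, the last stage before the egg is laid, in 3 samples labelled InR-DN and 3 samples labelled GFP control. The description of the InR-DN samples adds the word progeny, so whether the sequenced oocytes or their mothers carried the transgene is not settled by the labels. InR is the insulin receptor, whose signalling InR-DN is meant to suppress, per the design text. Each of the 6 samples was a pool of 200 oocytes, and all flies had the same standard food with yeast paste. The labels give neither the driver of the 2 transgenes nor the age of the females, and nothing in them tells whether pools of 1 group were separate crosses, so p-values cover only the spread between pools, which may be technical.

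All values come from the authors' deposited table, which sets 2 groups against each other and holds no value per sample. It lists for each gene the log2 fold change, the average log2 CPM (reads relative to library size, logged to base 2), the likelihood ratio and its p. The table does not state which group is on top of its fold changes, so they are given by sign alone and are not assigned to InR-DN or to GFP control oocytes. Its title speaks of embryos where the labels name oocytes, and whether it covers these samples was not tested. Depth per sample is unknown. All 10 oocyte markers, among them osk, bcd and nos, were present, with average log2 CPM from 3.11 to 10.51 in the authors' deposited table, with 0 of the 10 past an adjusted p of 0.05. Marker lists of other tissues did move in the authors' deposited table. Of 19 tested digestive enzyme genes of the gut, 17 were called on the positive side and 1 on the negative side, and the list median was a log2 fold change of 4.39. Of 9 Malpighian tubule genes, 4 were called, all negative, with a list median of -2.06. Of 7 tested testis genes 0 were called, and of 9 tested neuronal genes 1 was called. Levels per group cannot be given for these lists, and their part in the values below was not tested.

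Autophagy encloses cytoplasm in a double membrane and delivers it to the lysosome for breakdown. A kinase complex around Atg1 starts the process, a lipid kinase complex and lipid carriers build the membrane, and ubiquitin-like conjugation fixes Atg8 proteins to it. Insulin and TOR signalling hold Atg1 back, and the lysosome works only when the vacuolar proton pump acidifies it. The pump turns ATP hydrolysis in a catalytic sector into proton transport through a membrane sector. In flies most of its subunits have a widely used gene, and several have extra paralogues known mainly from single tissues such as the testis, the midgut or neurons. In the fly ovary autophagy is known from the death of nurse cells late in oogenesis.

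The autophagy and pump genes held no call. By the authors' likelihood ratio test, 0 of the 46 members with a likelihood ratio above 0 had an adjusted p under 0.05, in either direction, and 0 had an unadjusted p under 0.05. Over all 13080 tested genes, 5.1% passed the adjusted threshold, 2.61% on the positive and 2.48% on the negative side, and 11.4% passed the unadjusted one. Calls were rarer among well counted genes, to which most members belong. Of the 7079 tested genes with an average log2 CPM of 3 or more, 2.03% passed the adjusted and 4.87% the unadjusted threshold, and 39 of the 54 members lay in that range. Against that share a count of 0 called members is near the background. The lowest unadjusted p of any member in the authors' deposited table was 0.148, for Vha100-4, with an adjusted p of 0.844.

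**Figure D1:**
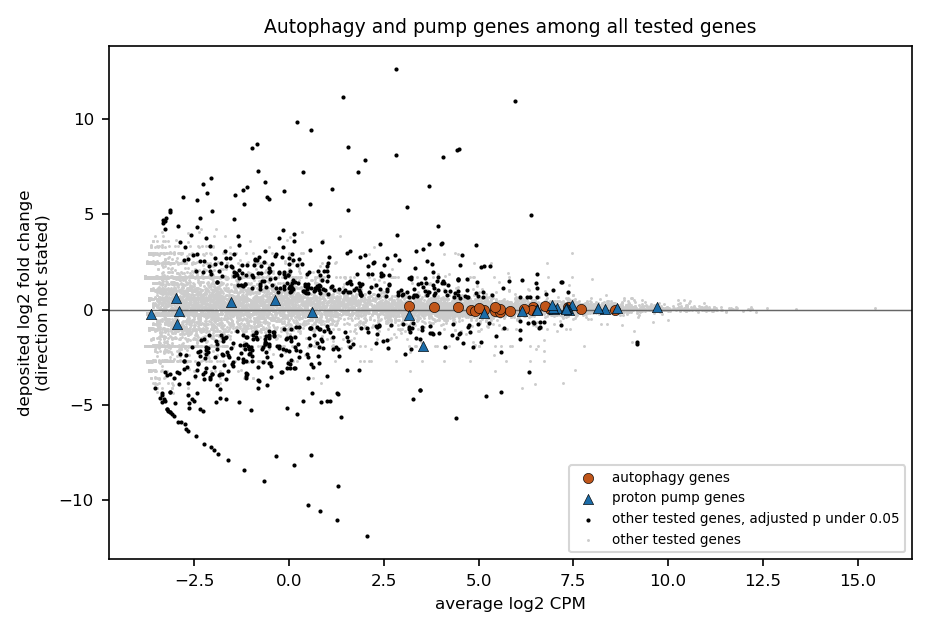
Each point is 1 tested gene of the authors' deposited table, with its average log2 CPM on the horizontal axis and its deposited log2 fold change, of unstated direction, on the vertical axis. Orange circles are the 20 tested autophagy genes, blue triangles the 26 tested pump genes and black points the 667 genes with an adjusted p under 0.05; the members lie in a narrow band around 0, apart from VhaM9.7-a at -1.91 and a few pump genes of low average.

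The fold changes of the well counted members were small. For the 39 members with an average log2 CPM of 3 or more, the median absolute log2 fold change in the authors' deposited table was 0.09, against 0.10 for all tested genes in that range. The signs of these 39 were mixed, with 25 positive and 14 negative, against 4023 and 3056 among all tested genes in that range. Over all 46 tested members there were 28 positive and 18 negative, against 7311 positive and 5769 negative among all tested genes. To show how large a change the table could have missed, a standard error was implied for each gene from its log2 fold change and likelihood ratio. This implied SE depends on the authors' model and could not be set beside a spread between samples. Of the 44 members that had one, 36 had a 95% interval within a 2-fold change in either direction and 20 within a 1.5-fold change. Among well counted members the shares were 94.6% and 54.1%, against 89.6% and 49.1% of all genes in the same range. A 2-fold change thus lay outside the interval for most of these genes, while for many a 1.5-fold change lay inside it in at least 1 direction. The intervals do not show how large a change would have been called.

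The Atg1 kinase complex starts autophagy and is the step that TOR signalling holds back directly. In the authors' deposited table Atg1, the kinase itself, was at a log2 fold change of 0.05 with an adjusted p of 1 and an implied SE of 0.18, with an interval from -0.30 to 0.40. Its partner Atg13, which TOR phosphorylates in flies, was at 0.14 and the scaffold Atg17 at 0.13, each with an implied SE of 0.18, from the authors' deposited table. Atg101, the last partner, was listed at -0.0025 in the authors' deposited table and has no implied SE because its likelihood ratio is too close to 0. The 3 intervals of this step all lay inside a 1.5-fold change.

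Atg6, the fly counterpart of Beclin 1, and Atg14 belong to the lipid kinase complex that marks the growing membrane. In the authors' deposited table Atg6 was at -0.09 (implied SE 0.22) and Atg14 at -0.10 (implied SE 0.33). Atg2 carries lipid to the membrane, Atg9 spreads it between the leaflets, and Atg18a and Atg18b bind the lipid that the kinase makes. Of these 4, Atg2 had the lowest p of all autophagy genes, 0.345, where the authors' deposited table lists a log2 fold change of 0.17 (implied SE 0.18). The authors' deposited table put Atg9 at 0.13, Atg18b at 0.14 and Atg18a at -0.05. Atg18b was the least certain, with an interval from -0.55 to 0.83.

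The conjugation machinery held 10 genes. Atg7, which activates both ubiquitin-like proteins, was listed at 0.09 per the authors' deposited table (implied SE 0.25). The carrier enzymes Atg3 and Atg10, which act on Atg8 and Atg12, were at 0.03 and 0.17, and Atg12 itself was at 0.16, again in the authors' deposited table. Atg5 and Atg16, which join Atg12 in a complex at the membrane, were listed at -0.05 and -0.11 by the authors' deposited table. The proteases Atg4a and Atg4b, which trim Atg8, were at -0.09 and 0.0011. Taking the 9 tested members of this step, 5 were positive and 4 negative, with a median of 0.0011.

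Atg8 in flies has a widely expressed gene and one known from the male germline, and the 2 differed sharply in level. Atg8a had an average log2 CPM of 8.61 in the authors' deposited table, or 230.1 CPM per kilobase of annotated exon, more than 98.1% of the annotated genes. The authors' deposited table gives it a log2 fold change of -0.05 (implied SE 0.29), with an interval from -0.62 to 0.53. Atg8b had neither a fold change nor a likelihood ratio other than 0, and its average log2 CPM of -3.80 was within 0.01 of the lowest value of the table. No fold between the pair is given, because Atg8b lies at that floor. The cargo receptor gene ref(2)P, the fly counterpart of p62, was at 0.0095 per the authors' deposited table (implied SE 0.27) and at 87.5 CPM per kilobase. The next highest autophagy gene per kilobase was Atg3 at 59.6, and the median over all 21 was 19.7.

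**Figure D2:**
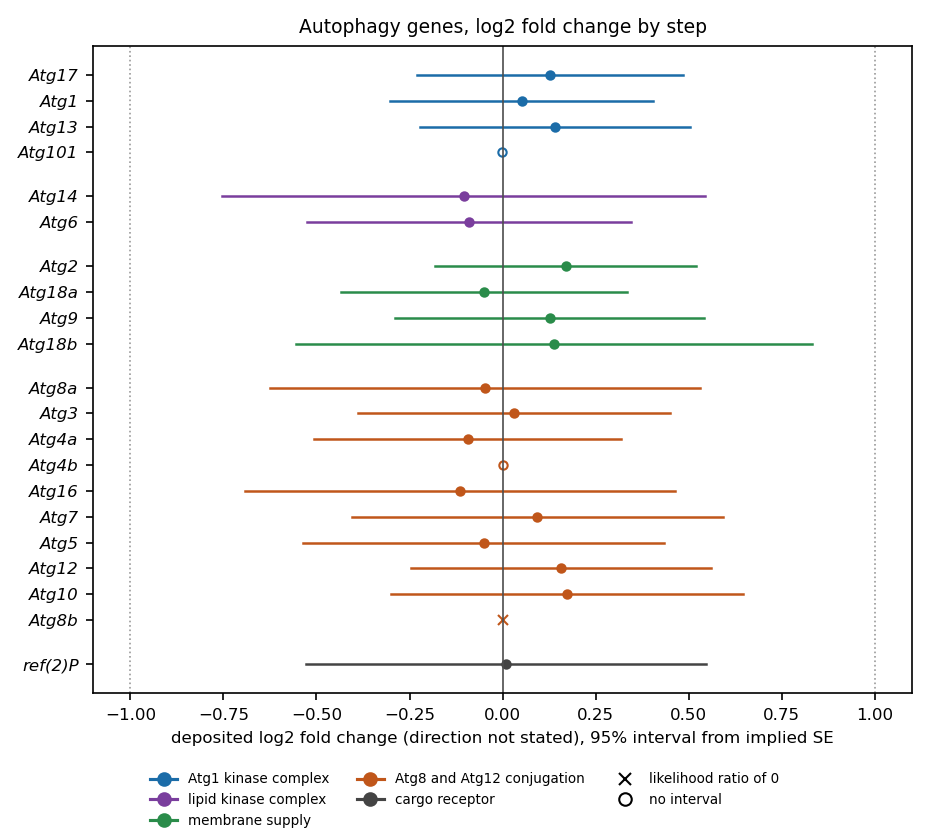
Points are the deposited log2 fold changes of the 21 autophagy genes, of unstated direction, grouped by step and ordered by average level within a step; bars are 95% intervals from the implied SE, and dotted lines mark a 2-fold change. All 18 intervals cross 0 and stay inside the dotted lines; Atg101 and Atg4b have no interval, and Atg8b had a likelihood ratio of 0.

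Some autophagy genes share exon bases with a neighbour, and the counting is not stated to use strand, so their reads may be shared. Atg4a shares 51.4% of its exon bases with CG4629 on the other strand, in the Ensembl annotation. CG4629 was itself called in the authors' deposited table, at 0.94 with an adjusted p of 0.0093, while Atg4a was at -0.09 with an adjusted p of 1. Atg4a had an average log2 CPM of 5.82 and CG4629 of 1.43, from the authors' deposited table. Atg10 shares 46.6% of its exon bases with Dgk, which was not called. The other shared stretches of autophagy genes covered at most 13.6% of exon bases.

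Pump subunits were compared as 16 ubiquitous genes, 13 tissue-restricted paralogues and 4 paralogues whose class was not sure. Of the log2 fold changes of ubiquitous genes 12 were positive and 4 negative, with values between -0.29 and 0.26 and a median of 0.07 in the authors' deposited table. The median of all tested genes was 0.03. Of the 13 restricted paralogues only 7 had a likelihood ratio above 0, and their log2 fold changes ran from -0.75 to 0.61 with a median of 0.03 in the authors' deposited table. Neither class held a called gene or an unadjusted p under 0.05. The classes differed in precision: the median implied SE was 0.22 for ubiquitous and 0.92 for restricted genes. A 2-fold change lay outside the interval for 15 of 16 ubiquitous genes and for 1 of 7 tested restricted ones.

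The catalytic sector hydrolyses ATP. Its A and B subunits form the ring that binds ATP, and their genes Vha68-2 and Vha55 were listed at 0.07 (implied SE 0.20) and 0.0053 (implied SE 0.22) by the authors' deposited table. Vha26, Vha13 and Vha44, which form the outer stalks, were listed at 0.06, -0.05 and 0.09 by the authors' deposited table. The inner shaft genes Vha36-1 and Vha14-1 were at 0.01 and -0.08. VhaSFD, the H subunit, which in yeast keeps a detached catalytic sector inactive, had the lowest p of the ubiquitous genes, 0.223, at 0.26 per the authors' deposited table (implied SE 0.21). A further gene for the A subunit, Vha68-1, was at -0.29 per the authors' deposited table (implied SE 0.37), and its interval from -1.01 to 0.43 was the only one of the 16 ubiquitous intervals that passed a 2-fold change.

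The membrane sector carries the protons. Vha16-1, which encodes the subunit that makes up most of the rotating ring, was at 0.11 per the authors' deposited table (implied SE 0.26), and VhaPPA1-1, a related ring subunit, was at 0.04 (implied SE 0.32). Vha100-2, the large a subunit beside the ring, was at 0.22 per the authors' deposited table (implied SE 0.19, p = 0.237). VhaAC39-1, which joins the ring to the shaft, was at 0.08, and the small e subunit VhaM9.7-b was at -0.04, also in the authors' deposited table. The accessory genes VhaAC45 and VhaM8.9, of which VhaM8.9 encodes the fly prorenin receptor, were at 0.09 and 0.08. Every interval of these membrane sector and accessory genes lay within a 2-fold change.

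**Figure D3:**
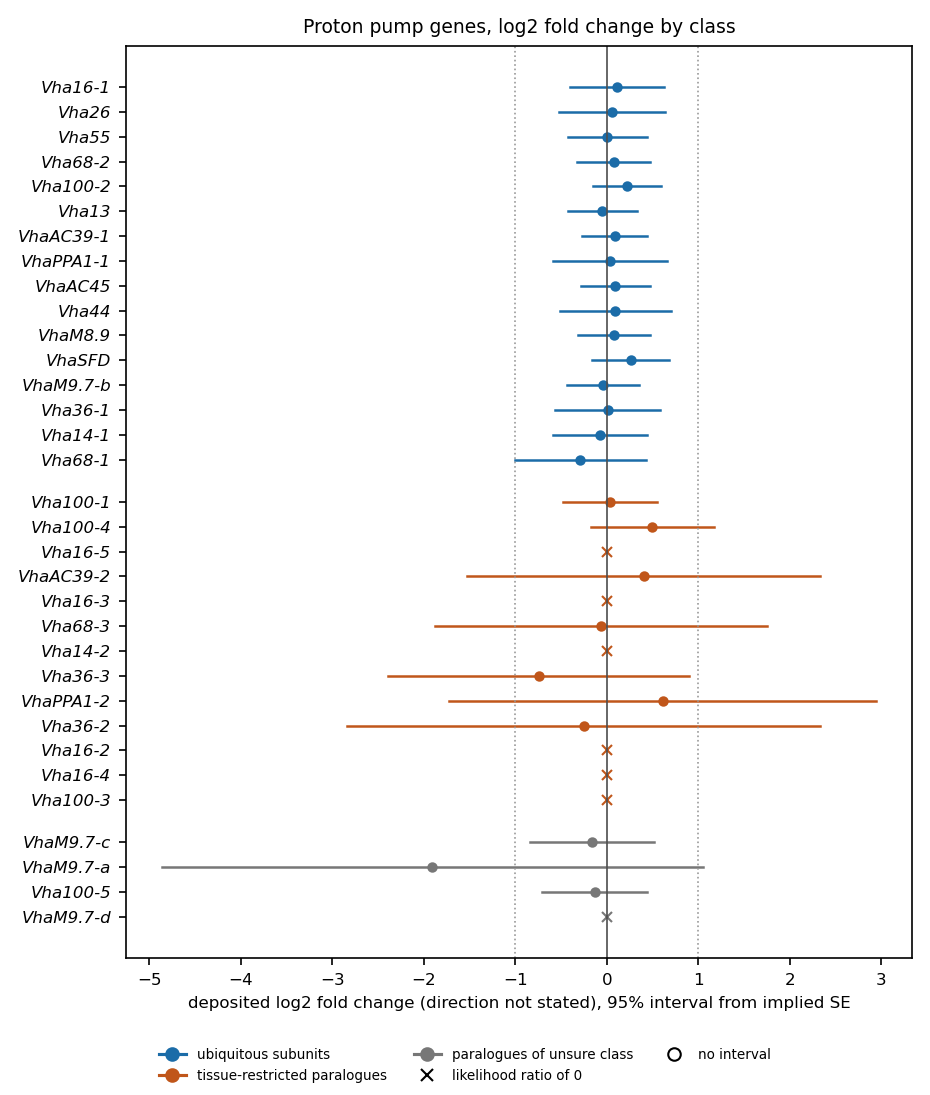
Points are the deposited log2 fold changes of the 33 pump genes, of unstated direction, by class and ordered by average level within a class; bars are 95% intervals from the implied SE, crosses mark a likelihood ratio of 0 and dotted lines a 2-fold change. Intervals stay inside the dotted lines for 15 of the 16 ubiquitous genes and for Vha100-1, and reach past them for the other 6 tested restricted paralogues and for VhaM9.7-a.

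The classes lay far apart in level. The average is taken by the authors over libraries that the table does not name, and it carries no error, so the levels are a description of the whole table and not of InR-DN or GFP control oocytes. Per kilobase of annotated exon, the ubiquitous genes had a median of 88.2 CPM, from 3.32 for Vha68-1 to 269.1 for Vha16-1. Restricted paralogues had a median of 0.131 CPM per kilobase, and 12 of the 13 had an average log2 CPM below 0 in the authors' deposited table. Of the 13, 6 had a likelihood ratio of 0. The median gene, Vha16-2, had an average of -3.69, near the lowest value of the table, -3.80. The restricted median therefore partly reflects that floor and gene length. The median over all annotated genes was 3.16 CPM per kilobase. Vha16-1 was followed by Vha13 at 178.3, Vha26 at 138.5, VhaPPA1-1 at 118.1 and Vha55 at 116.9 CPM per kilobase. Vha44 had the lowest level among ubiquitous genes other than Vha68-1, at 33.6 CPM per kilobase. Per kilobase of coding sequence Vha16-1 was again first, at 1736 CPM, but Vha26 at 598 came before Vha13 at 479, and the class medians were 154 CPM for ubiquitous and 0.201 for restricted genes.

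For most subunits with more than 1 gene, nearly the whole level came from the ubiquitous gene. Vha36-1 held 99.8% of the D subunit, Vha14-1 99.9% of the F subunit, Vha16-1 99.5% of the c subunit and VhaAC39-1 99.7% of the d subunit, in CPM per kilobase summed over the paralogues. The A subunit had 96.9% from Vha68-2 and 3.09% from Vha68-1. These shares include paralogues whose average is at or near the lowest value of the table, so their part is at most what is given. Where a paralogue lay well above that floor, a ratio of averages can be given. Per kilobase, Vha16-1 was 554-fold higher than Vha16-3, and VhaAC39-1 was 318-fold higher than VhaAC39-2. Vha16-3 had a likelihood ratio of 0, and which libraries entered its average was not tested, so its ratio is the less certain. Per kilobase of coding sequence, an alternative chosen after seeing the data, these ratios were 2640.0 and 462. Vha16-1 has 3077 exon bases and 477 coding bases.

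Vha100-1 was the exception among the restricted genes. It encodes the a subunit known from neurons, where it acts at synapses and in photoreceptors. Its average log2 CPM, as the authors' deposited table lists it, was 6.98. Per kilobase, Vha100-2 had 54.9 CPM and Vha100-1 38.4 CPM, a 1.43-fold difference, and the pair held 58.3% and 40.8% of the a subunit. Per kilobase of coding sequence the difference was 1.52-fold. Of the 11 neuronal markers in the authors' deposited table, 7 had an average log2 CPM below 0. Among them were the synaptic genes nSyb, Syt1 and brp at -1.24, -2.58 and -0.81. The other 4 were the neuronal RNA-binding protein gene elav at 7.03, cac at 3.37, Appl at 2.01 and futsch at 1.90. Of the neuronal markers, cac was the 1 called. Vha100-1 had a log2 fold change of 0.03 per the authors' deposited table (implied SE 0.26), with an interval from -0.48 to 0.54.

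Vha100-4 encodes the a subunit that the acid-secreting cells of the larval midgut need. It had an average log2 CPM of -0.38 in the authors' deposited table, or 0.282 CPM per kilobase, which made Vha100-2 195-fold higher, or 233-fold per kilobase of coding sequence. For its log2 fold change the authors' deposited table lists 0.50 (implied SE 0.34, p = 0.148), with an interval from -0.18 to 1.17. The gut enzyme list had a median log2 fold change of 4.39, and its part in the value of Vha100-4 was not tested. Vha100-5, another a subunit gene, was at -0.13 per the authors' deposited table (implied SE 0.29) and at 0.521 CPM per kilobase. Vha100-3 was listed with a likelihood ratio of 0 and an average at the lowest value of the table. The a subunit therefore had 5 genes in the table, of which Vha100-2 and Vha100-1 held nearly all of the level.

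By the table's averages, the level of the small e subunit was also spread over several genes. VhaM9.7-b had 76.7 CPM per kilobase, VhaM9.7-c 42.0 and VhaM9.7-a 16.4, which were 56.4%, 30.9% and 12.0% of their sum with VhaM9.7-d. The authors' deposited table put VhaM9.7-c at a log2 fold change of -0.16 (implied SE 0.35). VhaM9.7-a had the largest fold change of all members, at -1.91, but with an implied SE of 1.51, a p of 0.207 and an adjusted p of 0.931 in the authors' deposited table. Its interval ran from -4.87 to 1.06. Such an SE is rare at this level: of 685 tested genes with an average log2 CPM from 3 to 4, 7, VhaM9.7-a among them, had an implied SE at least as large, and the median was 0.25. Among all genes with an average log2 CPM below 0, the median implied SE was 1.07. Without values per sample, whether 1 library carried the value of VhaM9.7-a was not tested. Whether its average, and so its 12.0% share, came from the compared libraries was not tested either.

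**Figure D4:**
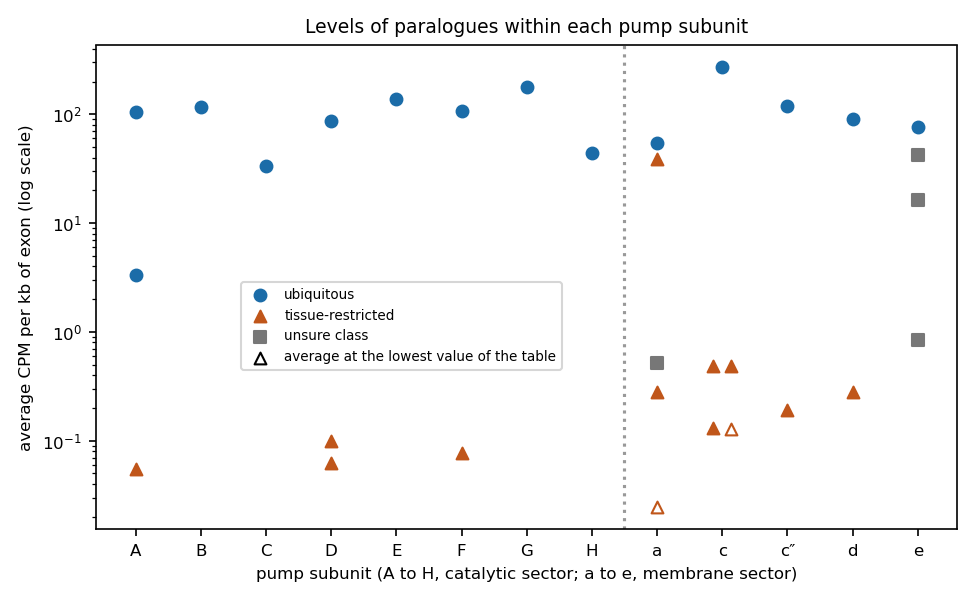
Each point is 1 pump gene, placed by subunit on the horizontal axis and by its average CPM per kilobase of exon, on a log scale, on the vertical axis; blue circles are ubiquitous genes, orange triangles tissue-restricted paralogues and grey squares genes of unsure class, and open symbols are averages at the lowest value of the table. The restricted paralogues lie below 0.5 CPM per kilobase except Vha100-1 at 38.4, and subunits a and e have more than 1 gene above 10 CPM per kilobase.

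The other tested paralogues had low averages and wide intervals. In the authors' deposited table VhaPPA1-2 was at 0.61 (implied SE 1.19), Vha36-3 at -0.75 (implied SE 0.84) and VhaAC39-2 at 0.40 (implied SE 0.98). The same source, the authors' deposited table, lists Vha36-2 at -0.25 (implied SE 1.32) and Vha68-3 at -0.06 (implied SE 0.92). The interval of each of these 5 reached past a 2-fold change in at least 1 direction. A likelihood ratio of 0 was listed for Vha14-2, Vha16-2, Vha16-3, Vha16-4 and Vha16-5, for Vha100-3 and for VhaM9.7-d. Of the testis markers 4 of 11 had a likelihood ratio of 0 in the authors' deposited table, as did 1695 of all 6130 genes with an average log2 CPM below 0. The testis list was not uniform, with 10 of 11 averages below 0 and S-Lap1 at 4.77.

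Several of these paralogues lie beside their ubiquitous relatives on the chromosome. In the Ensembl annotation Vha68-3 follows Vha68-2 with no protein-coding gene between them, and Vha68-1 lies 1 protein-coding gene further on. Vha100-4 is likewise directly beside Vha100-2, and VhaPPA1-2 is 1 gene away from VhaPPA1-1. In each pair the neighbours differed widely in level, with 103.9 CPM per kilobase for Vha68-2 and 0.0551 for Vha68-3, and 118.1 for VhaPPA1-1 and 0.190 for VhaPPA1-2. The averages of Vha68-3 and VhaPPA1-2, -2.89 and -2.97, were not far above the lowest value of the table, -3.80, so their levels are rough. Vha16-2 and Vha16-3 are adjacent to each other, and both had a likelihood ratio of 0. Vha16-2 shares 84.5% of its exon bases with an antisense RNA gene, so reads under its name could belong to either. Coordinates are left out, since the build behind the table is not given in the sources used here.

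Further genes of the pathway, from lists chosen with earlier results known, gave no call either. Among 15 tested genes of the lipid kinase, membrane fusion and autophagy adaptors, the authors' deposited table has 0 calls and no unadjusted p under 0.05. Pi3K59F, the lipid kinase that works with Atg6, was at -0.23, and Rab7, a small GTPase of late endosomes, was at 0.07 in the authors' deposited table. Of 16 tested genes of lysosomal membrane, tethering and hydrolases, 0 were called and 1 had an unadjusted p under 0.05. That gene was Vps39, a subunit of the tethering complex. The authors' deposited table lists it at -0.53 with a p of 0.044 and an adjusted p of 0.459. Apart from Gba1b, at 2.42, every tested gene of both lists had an average log2 CPM of 3 or more. In that range the share of calls was 2.03%, and for 4.87% of tested genes p fell below 0.05 before adjustment. Counts this low in lists this short are therefore near the background. The abundant genes Cp1 and cathD, which encode lysosomal proteases, were at 0.04 and 0.02, and the lysosomal membrane protein gene Lamp1 was at -0.10, also in the authors' deposited table.

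Genes listed as partners of the pump, among them genes of its assembly and regulation, held no call. Of the 8 genes 0 were called by the likelihood ratio test of the authors' deposited table, and no unadjusted p was under 0.05. Their average log2 CPM ran from 5.14 to 8.09. Of all tested genes at 3 or more, 2.03% were called and 4.87% had an unadjusted p under 0.05. A count of 0 among 8 genes is near that background. The largest fold change was that of Mitf, a transcription factor that activates pump and lysosome genes in flies and is in the lysosome list too, at 0.33 with a p of 0.109 and an adjusted p of 0.749 in the authors' deposited table. Rbcn-3A and Rbcn-3B, whose proteins help to assemble the pump, were listed at 0.16 and 0.17 by the authors' deposited table. RagA-B and RagC-D, the GTPases that report amino acids from the lysosome to TOR, were at -0.09 and -0.10.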

How the data were processed

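Per the labels' protocols, RNA was isolated from stage 14 oocytes and libraries were made with a stranded total RNA kit, while the labels also call the RNA polyA selected. FastQC, Bowtie and TopHat are listed, with no version, per the submitters' processing notes. Neither the genome build nor the counting program is given in the sources used here. Per the file headers, the authors deposited per gene the log2 fold change, the average log2 CPM, a likelihood ratio score and both raw and adjusted p-values, and the title of the table names edgeR's likelihood ratio test. No value per sample was analysed, so the count test planned for a count table was replaced by the authors' own adjusted p-values, and depth is unknown. A chi-square tail with 1 degree of freedom gave back the deposited p-values (largest difference 6.4e-15).

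From the table, a gene was called at an adjusted p under 0.05. The implied SE is the absolute log2 fold change divided by the square root of the likelihood ratio, where that was above 0.0001. The 95% interval is 1.96 of these SE on either side. Simulated data, in which the likelihood ratio was set as the squared ratio of effect to SE, checked only the arithmetic of both steps. They held no counts, so they cannot show that the intervals hold for genes with few reads. Levels per kilobase use 2 to the power of the average log2 CPM and the merged exons of Ensembl release 115 (BDGP6.54), in which all 54 members were found, VhaM8.9 as ATP6AP2 through a RefSeq synonym (Release 6 plus ISO1 MT). The members, lists and classes were chosen with earlier results of these data known, and the pump classes come from general knowledge of the fly pump. All members are named, with full values for those with a p under 0.05, the largest fold changes or levels, and the paralogue pairs. Of the other lists, 14 genes were matched through a synonym and 5 were not found. Python 3.11.15, pandas 2.3.3, numpy 2.4.6, scipy 1.17.1, statsmodels 0.14.6 and matplotlib 3.10.9 were used.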

Additional observations from a re-analysis of the deposited data

Results flagged for a closer look

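For 5 pump paralogues the fold change and the likelihood ratio were both 0, so the comparison says nothing of them, although their average log2 CPM lay above the lowest value of the authors' deposited table, -3.80, by more than 0.01. As listed in the authors' deposited table, that average was -1.27 for VhaM9.7-d, -1.51 for Vha16-5, -1.68 for Vha16-3, -2.94 for Vha14-2 and -3.69 for Vha16-2. The remaining 3 members with a likelihood ratio of 0, Atg8b, Vha100-3 and Vha16-4, had averages at the lowest value. Among all genes, 1328 of 1782 genes with a likelihood ratio of 0, or 74.5%, lay above the lowest value in this way. The average log2 CPM was above -2 for 237 of these 1782 genes and 3 or more for 23 of them. Which libraries entered the average was not tested, although the levels, the shares and the range of well counted genes all rest on it.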

How the results depend on the processing

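The count of called members was 0 under every alternative tried. These were adjusted p thresholds of 0.01 and 0.1, and adjustment over the 13080 tested genes alone. Genes with an average log2 CPM below 0 or below 1 were also removed before adjustment, which kept 40 and 39 members. The lowest unadjusted p of any member by the authors' likelihood ratio test was 0.148, for Vha100-4. An adjusted p is never below the unadjusted one, so none of these alternatives could have called a member. The median log2 fold change of the restricted paralogues, 0.03, was not stable: it was -0.10 with the genes of unsure class included, 0.17 without Vha100-1 and -0.0024 when centred on the median of all tested genes, and with averages below 0 left out it rested on Vha100-1 alone. The autophagy median was -0.01 when centred, and the median of the ubiquitous subunits was 0.03 when centred and 0.05 without the accessory genes. Leaving out Vha100-1 and the use of coding length were chosen after seeing the data. Coding length moved the ratio of the averages of Vha16-1 and Vha16-3 to 2640.0, against 554 with exon length. No paired analysis was possible because per-sample values were not analysed here, and for the same reason leaving out replicates, the replicate block and DESeq2 were not run. Depth is unknown, and the interval reached past a 1.5-fold change in at least 1 direction for 24 of 44 members.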
